A study of Drosophila melanogaster with 36 samples.

Results

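Translation initiation factors bring the small ribosomal subunit, the initiator tRNA and the mRNA together and choose the codon at which protein synthesis starts. eIF4 proteins bind the cap at the 5′ end of the mRNA and unwind it, eIF3 holds the small subunit and the mRNA together, and eIF2 delivers the initiator tRNA and is recharged by eIF2B. In the fly brain, control of translation is a known part of the circadian clock, because the protein Tyf, which works with Atx2 on the mRNAs of the clock genes, is needed in the PDF neurons for normal daily behaviour.

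The genes described here were all those whose symbol starts with eIF in the Ensembl annotation of Drosophila melanogaster and whose mean level reached 1 TPM (a transcript's share of the library, corrected for its length) over 36 libraries. Of 44 such symbols 35 were members, out of 8649 genes at or above that level. All 35 were above 0 in each of the 36 libraries. The other 9 genes were paralogues, which averaged between 0.208 TPM (eIF4H2) and 0.962 TPM (eIF4E5), while the lowest member, eIF2D, averaged 7.32 TPM.

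The libraries were made from LNv neurons, ventral lateral clock neurons, most of which make the neuropeptide PDF, sorted by fluorescence from dissected brains of female flies of the w1118 background whose genotype is given as WT and which carried a membrane GFP driven through Pdf (Pdf>mGFP). LC25 flies were raised on 0.5x sucrose-yeast food at 25 °C, HC18 flies on 1.5x food at 18 °C and HC25 flies on 1.5x food at 25 °C. Each condition had 12 libraries, 1 every 2 h between zeitgeber times ZT02 and ZT24. With 1 library per time and condition the time course is the replication, and nothing in the labels says whether libraries came from separate batches of flies, so p-values measure only the spread of these libraries around the fitted curve or the time-matched mean. The RNA was amplified with T7 RNA polymerase, the sequencing depth cannot be read from TPM, and in bulk cells fewer cells of a type and less RNA per cell cannot be told apart.

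Pdf itself took between 7.68% and 30.1% of all TPM, and the neuronal markers elav, nSyb, brp and Syt1 were present in every library, while markers of muscle summed to at most 10.3 TPM and markers of haemocytes to at most 6.24 TPM. Photoreceptor markers reached 876 TPM in an LC25 library. In the HC25 library of ZT08 glial markers reached 1057 TPM, germline markers 237 TPM and fat body markers 175 TPM. The highest muscle and haemocyte sums were in that library too. Its median Spearman correlation with the other libraries was 0.893. It was left out only together with the HC25 library of ZT06 and the HC18 library of ZT24. The HC25 library of ZT06 stood apart too, with the lowest Pdf share (7.68%), a glial marker sum of 689 TPM and a median Spearman correlation of 0.837 with the other libraries. The HC18 libraries of ZT06, ZT08, ZT10 and ZT22 had between 121 and 1603 TPM of fmt, a gene that had at least 18790 TPM in the other 8 HC18 libraries. Where leaving out the HC25 library of ZT06 or these 4 HC18 libraries ended a call of a member gene, both values are given.

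The 35 genes together took 0.458% ± 0.0417 of all TPM in LC25, 0.484% ± 0.0474 in HC18 and 0.455% ± 0.0360 in HC25 (SD, n = 12 each). The lowest share, 0.369%, was in the HC25 library of ZT06. Mean levels of single members ran between 7.32 and 975.8 TPM, as the plot of members by role shows.

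**Figure D1:**
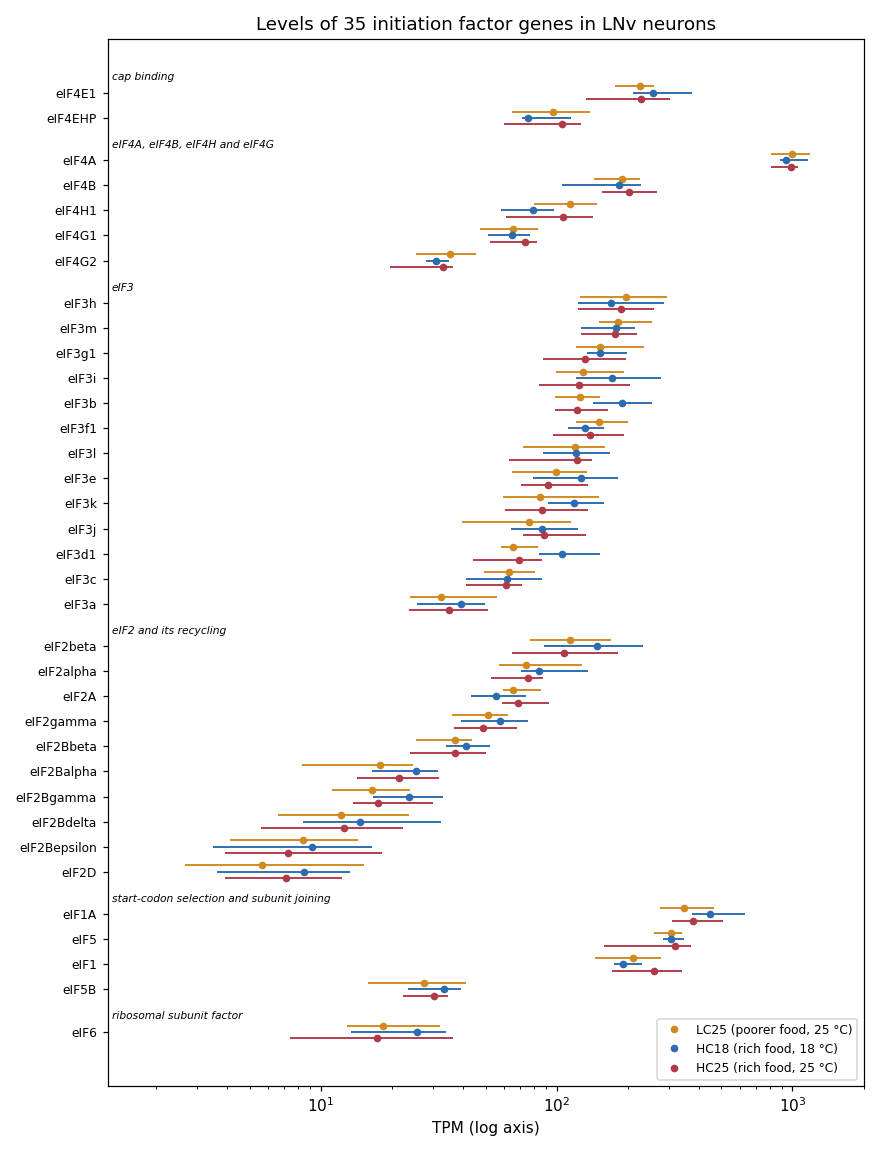
TPM of the 35 initiation factor genes on a log axis, grouped by role and sorted by mean within a role; points are medians and lines run between the lowest and the highest of the 12 libraries of LC25, HC18 and HC25. eIF4A, at a mean of 975.8 TPM, stands above all others, and eIF2Bdelta, eIF2Bepsilon and eIF2D lie lowest.

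The cap-binding proteins were represented by 2 members. eIF4E1, the general cap-binding factor, had 177, 226 and 258 TPM (lowest, median and highest) in LC25, 211, 256 and 373 TPM in HC18, and 133, 228 and 303 TPM in HC25. The 3 ranges overlapped, and the HC25 minimum was the library of ZT06. eIF4E1 made up between 97.0% and 99.8% of the summed TPM of the eIF4E1 to eIF4E7 paralogues, so that almost all cap-binding transcript of that family came from 1 gene. eIF4EHP, which binds the cap without recruiting eIF4G and represses its targets, had 64.7, 96.1 and 139 TPM in LC25, 71.2, 75.7 and 115 TPM in HC18, and 60.0, 105 and 127 TPM in HC25. Its ranges overlapped too, with the HC18 median below both others.

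Among the helicase and scaffold proteins, eIF4A, the RNA helicase, ranked 125th of the 8649 genes and made up 20.96% of the summed mean of the 35 members. It had 815, 994 and 1183 TPM in LC25, 887, 943 and 1164 TPM in HC18, and 815, 982 and 1052 TPM in HC25. It was also the member that varied least, with a coefficient of variation of 8.67% over the 36 libraries, against a median of 20.5% over the members. eIF4B and eIF4H1, partners of the helicase, averaged 188 and 99.3 TPM. The scaffold eIF4G1 averaged 66.1 TPM, and its relative eIF4G2, the least abundant of the group, had 25.3, 35.3 and 45.4 TPM in LC25, 28.0, 30.7 and 34.9 TPM in HC18, and 19.7, 32.8 and 36.3 TPM in HC25.

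The 13 eIF3 subunits averaged between 36.1 TPM (eIF3a) and 188 TPM (eIF3h), a span of 5.21-fold between genes whose products meet in 1 complex. eIF3h had 125, 197 and 295 TPM in LC25, 123, 170 and 286 TPM in HC18, and 123, 188 and 258 TPM in HC25. eIF3a, the subunit around which the complex is built, had 23.9, 32.3 and 55.9 TPM in LC25, 25.5, 39.5 and 49.6 TPM in HC18, and 23.7, 35.0 and 51.3 TPM in HC25. In both genes the ranges of the 3 conditions covered one another almost wholly.

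The 10 members of the eIF2 group spanned 17-fold. eIF2beta, a subunit of the initiator tRNA carrier and the most abundant of them, had 77.1, 114 and 169 TPM in LC25, 88.3, 149 and 232 TPM in HC18, and 65.0, 107 and 183 TPM in HC25. The subunits of eIF2B, the factor that reloads eIF2 with GTP, ran between 9.01 TPM (eIF2Bepsilon) and 37.8 TPM (eIF2Bbeta), below eIF2alpha (80.1 TPM) and eIF2gamma (52.2 TPM). eIF2D, which can bring initiator tRNA without eIF2, had 2.66, 5.63 and 15.2 TPM in LC25, 3.62, 8.52 and 13.3 TPM in HC18, and 3.95, 7.09 and 12.3 TPM in HC25. eIF2Bepsilon varied most of all members, with a coefficient of variation of 42.2%.

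Of the 4 factors of start-codon selection and subunit joining 3 were abundant: eIF1A at a mean of 399 TPM, eIF5, which triggers GTP hydrolysis by eIF2, at 304 TPM, and eIF1, which guards against wrong start codons, at 222 TPM. eIF5B, which joins the large subunit, had 15.9, 27.3 and 41.1 TPM in LC25, 23.3, 33.4 and 39.3 TPM in HC18, and 22.3, 30.1 and 34.6 TPM in HC25. eIF6, which keeps the large subunit apart from the small one, had 12.9, 18.4 and 32.1 TPM in LC25, 13.4, 25.6 and 34.0 TPM in HC18, and 7.38, 17.3 and 36.3 TPM in HC25. In the Ensembl annotation 5 members share exon bases with another feature on the same strand (eIF5 with CG46312 over 80.8% of its exon bases, and eIF2gamma, eIF4EHP, eIF4G2 and eIF4A over smaller shares), and 14 share some on the opposite strand; no source used here says whether strand entered the quantification, so these values are uncertain to that extent.

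Level at 18 °C was compared with level at 25 °C on the same rich food, as the difference of mean log2(TPM + 1) between time-matched libraries (limma, Benjamini-Hochberg adjustment over all 8649 genes, called below 0.05). In HC18 6 members were higher and 3 lower: 5 subunits of eIF3 (eIF3d1, eIF3b, eIF3i, eIF3e and eIF3k) and eIF1A were higher, and eIF2A, eIF4H1 and eIF1 were lower. Of all genes tested 8.22% were called in this comparison, 5.92% as higher and 2.3% as lower, against 9 of the 35 members. The median difference was 0.15 over the members, 26 of which (74.3%) were positive, and 0.04 over all genes, 55.9% of which were positive. The members' median was 0.07 after median-ratio scaling and 0.05 when the 4 low-fmt HC18 libraries were left out, 21 being positive in both cases. The median of all genes was -0.02 after that scaling. It is not given here for the fit without those libraries, nor is the share of positive genes for either alternative. By role, 5 of 13 eIF3 subunits were called higher and none lower, 1 of 10 eIF2 group members was called lower, and eIF6 and both cap-binding genes were not called.

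eIF3d1 (FBgn0040227), whose human counterpart can itself bind the cap of particular mRNAs, had 83.8, 105 and 152 TPM in HC18, against 44.1, 69.2 and 87.0 TPM in HC25. In HC18 11 of 12 libraries lay above the highest HC25 library, and all 12 lay above the highest LC25 library (58.2, 65.5 and 83.5 TPM in LC25). The difference was 0.65 ± 0.10 (log2, SE), a 1.57-fold higher level, in the same direction at 12 of 12 times (limma adjusted p = 0.00016). eIF3b (FBgn0034237), a scaffold subunit that contacts eIF3i and eIF3g, had 142, 190 and 253 TPM in HC18, against 98.7, 122 and 165 TPM in HC25. Of its 12 HC18 libraries 10 lay above every HC25 library. It was 1.49-fold higher (log2 difference 0.57 ± 0.097, higher at 10 of 12 times, limma adjusted p = 0.000406).

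The other eIF3 subunits that rose overlapped more with HC25. eIF3i, the partner of eIF3b, had 121, 171 and 276 TPM in HC18 and 83.9, 125 and 205 TPM in HC25, a log2 difference of 0.47 ± 0.12 (11 of 12 times, limma adjusted p = 0.0146). eIF3e, whose human counterpart helps bind eIF4G, had 79.6, 127 and 182 TPM in HC18 and 70.9, 91.9 and 136 TPM in HC25, a log2 difference of 0.41 ± 0.11 (11 of 12 times, limma adjusted p = 0.0231). eIF3k, a peripheral subunit, had 92.0, 119 and 158 TPM in HC18 and 60.2, 86.8 and 136 TPM in HC25, a log2 difference of 0.44 ± 0.13 (9 of 12 times, limma adjusted p = 0.0268). In each of these 3 genes only 3 or 4 HC18 libraries exceeded the highest HC25 library. The remaining 8 subunits were not called, with log2 differences between -0.10 (eIF3h) and 0.19 (eIF3g1), and eIF3m, a subunit of the core, differed by 0.01 with an interval of -0.19 to 0.21.

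**Figure D2:**
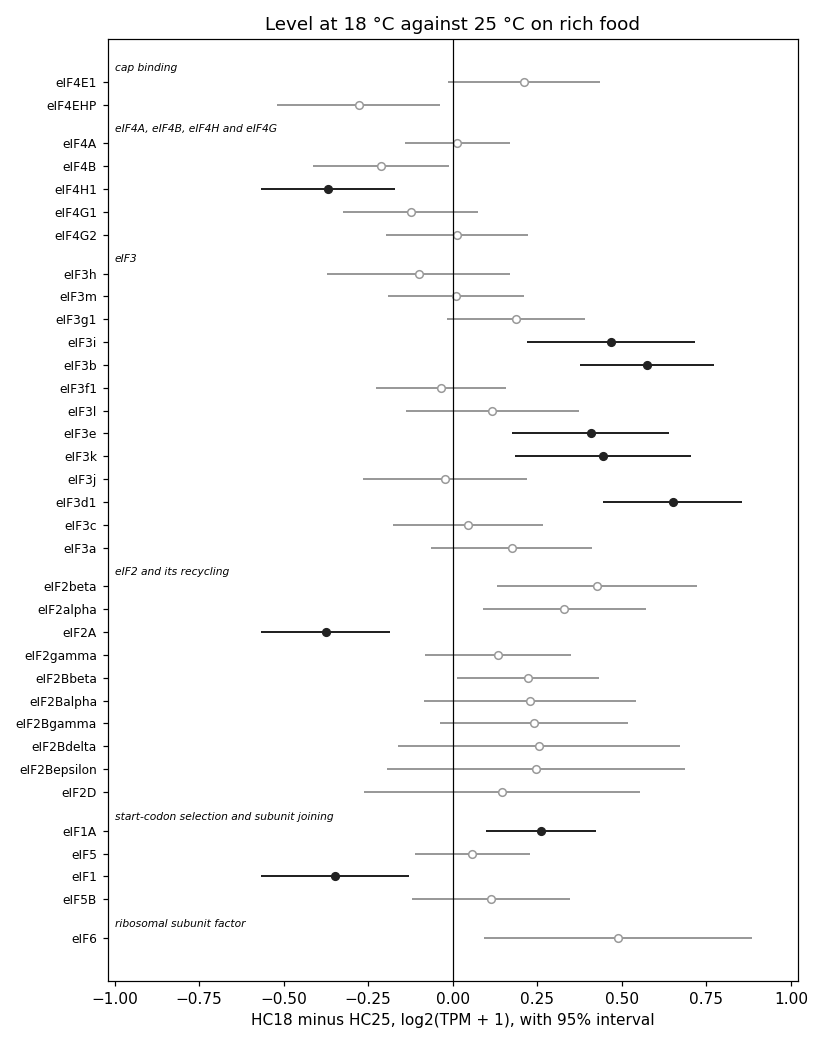
Difference in mean log2(TPM + 1), HC18 minus HC25, for the 35 members by role, with 95% intervals; filled points passed the limma test at an adjusted p below 0.05. The 5 filled eIF3 points lie between 0.41 and 0.65, and the 3 filled points left of 0 are eIF4H1, eIF2A and eIF1.

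Outside eIF3, eIF1A, which opens the small subunit for scanning, had 376, 449 and 628 TPM in HC18 and 307, 377 and 509 TPM in HC25; it was 1.20-fold higher (log2 difference 0.26 ± 0.079, 11 of 12 times, limma adjusted p = 0.0381), and 1 HC18 library exceeded all of HC25. Its call was lost after median-ratio scaling (limma adjusted p = 0.0656), without 3 libraries that stood apart (0.0808) and without the pairing of time points (0.0852); eIF4H1 and eIF3k also lost theirs without that pairing (0.0536 and 0.0608). eIF2A, a factor that can deliver initiator tRNA on its own, had 43.2, 55.3 and 74.0 TPM in HC18 and 58.4, 68.5 and 92.7 TPM in HC25. In HC18 9 of 12 libraries lay below the lowest HC25 library, and the level fell by 0.38 ± 0.094 on the log2 scale (higher at 1 of 12 times, limma adjusted p = 0.0115). eIF4H1 had 57.8, 79.7 and 97.4 TPM in HC18 and 60.7, 107 and 143 TPM in HC25, and fell by 0.37 ± 0.097 (higher at 2 of 12 times, limma adjusted p = 0.0157). eIF1 had 175, 192 and 229 TPM in HC18 and 172, 258 and 341 TPM in HC25, and fell by 0.35 ± 0.11 (higher at 2 of 12 times, limma adjusted p = 0.0412). The HC18 and HC25 ranges of eIF4H1 overlapped, and the HC18 range of eIF1 lay within that of HC25. In both genes the lowest HC25 library was that of ZT08, which had the highest glial, germline and fat body marker sums.

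Among the members that missed the threshold, eIF2beta and eIF2alpha had the smallest adjusted p (log2 differences of 0.43 and 0.33, limma adjusted p = 0.0628 and 0.0758). eIF2beta was called higher after median-ratio scaling (limma adjusted p = 0.0422), after quantile normalization (0.0454) and with shares recomputed without Pdf, fmt, trol, ribosomal proteins and mitochondrial transcripts (0.0453). It was also called without the 3 libraries that correlated least with the rest (0.0330) and with library weights (0.00389). eIF2alpha was called only with those weights (0.0201). eIF4EHP, at a log2 difference of -0.28 (limma adjusted p = 0.138), was called lower after median-ratio scaling (0.0328) and quantile normalization (0.0244). It was also called without the HC25 library of ZT06 (0.0371), without those 3 libraries (0.00321) and with library weights (0.00296). Neither eIF2beta nor eIF4EHP was called without the 4 HC18 libraries low in fmt. eIF4A differed by 0.01 with an interval of -0.14 to 0.17, and eIF4E1 by 0.21 with an interval of -0.02 to 0.44.

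**Figure D3:**
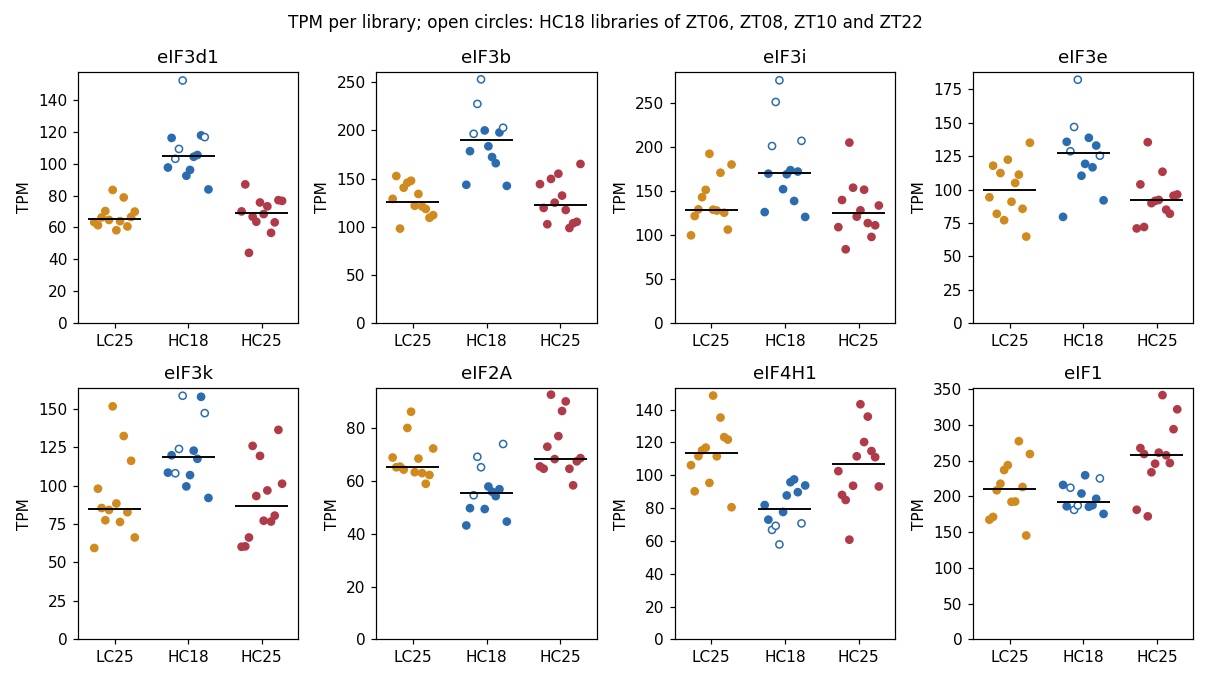
TPM per library of the 5 eIF3 subunits called higher and of 3 members called lower in HC18, for LC25, HC18 and HC25; within a condition points run left to right by time of day and lines are medians. Open circles are the HC18 libraries of ZT06, ZT08, ZT10 and ZT22. They include the highest library of eIF3d1, eIF3b, eIF3i, eIF3e and eIF3k and the lowest of eIF4H1.

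The 4 HC18 libraries low in fmt moved with part of this result. In them cytosolic ribosomal protein transcripts took 17.1% to 20.6% of TPM, against 13.4% to 17.5% in the other 8 HC18 libraries, mitochondrial transcripts took 3.08% to 7.05%, against 6.86% to 13.3%, and the 35 members took a mean of 0.527%, against 0.463%. eIF3i had a median of 229 TPM in the 4 and 161 TPM in the other 8, with an HC25 median of 125 TPM. Without the 4 libraries 2 members were called higher, eIF3d1 (0.54, limma adjusted p = 0.00969) and eIF3b (0.43, limma adjusted p = 0.0310), and 1 lower, eIF2A (-0.48, limma adjusted p = 0.0136), while 0.821% of all genes were called higher and 0.775% lower. The other 6 calls were lost, in a fit with 8 HC18 libraries. The difference was smaller than with all libraries in eIF3i (0.26), eIF3e (0.25), eIF1A (0.17) and eIF4H1 (-0.29), with limma adjusted p = 0.323, 0.316, 0.351 and 0.186. It changed little in eIF3k (0.42, against 0.44 with all libraries, limma adjusted p = 0.168). In eIF1 it was not smaller (-0.40, against -0.35, limma adjusted p = 0.124). Over all 12 libraries ribosomal protein transcripts had a median share of 15.2% in HC18 and 12.1% in HC25, and mitochondrial ones 8.58% in HC18 and 13.7% in HC25; the part of these shares in the members' differences was tested only by the rescaling given in the closing section. Summed glial markers had a median of 16.2 TPM in HC18 and 18.9 TPM in HC25, and fat body markers 6.17 TPM in HC18 and 21.0 TPM in HC25. Germline markers had 2.30 TPM in HC18 and 20.2 TPM in HC25. Over all libraries of the 3 conditions dhd, at a mean of 12.4 TPM, was the most abundant germline marker. Pdf had a median share of 27.3% in HC18 and 21.6% in HC25, neuronal markers a median sum of 966 TPM in HC18 and 1123 TPM in HC25, and photoreceptor markers 31.2 TPM in HC18 and 46.7 TPM in HC25. For all these markers their part in the result was not tested.

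Cytosolic ribosomal proteins, the other large group of the translation apparatus, were set beside the members. Of 87 genes 52 were called higher in HC18 and 0 lower, against 5.92% and 2.3% of all genes. Their median log2 difference was 0.42, compared with 0.15 for the initiation factors. Of the 9 elongation and release factors none was called in either direction by limma. An unadjusted p below 0.05 was reached by 4 of them and by 2120 of the 8649 genes. Of 25 tested regulators and partners of initiation 1 was called higher and 0 lower: nero, the hydroxylase that modifies the factor eIF5A, with a log2 difference of 0.66 ± 0.16 (11 of 12 times, limma adjusted p = 0.0118). Without the 4 HC18 libraries low in fmt 9 ribosomal protein genes were called higher and 0 lower (median 0.31), against 0.821% and 0.775% of all genes. In that fit nero was not called (0.51, limma adjusted p = 0.193). When the ZT06 library of HC25 was left out, 51 ribosomal protein genes and 1 elongation or release factor were higher. In the same fit 1 regulator or partner was higher and 2 lower, and 4.54% of all genes were higher and 4.29% lower.

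Food was compared at 25 °C, as LC25 minus HC25. None of the 35 members and none of the 8649 genes was called by limma in either direction (0.0% of all genes); at an unadjusted p below 0.05 there were 3 members and 453 genes. These members were eIF1, with 145, 211 and 277 TPM in LC25 and 172, 258 and 341 TPM in HC25 (log2 difference -0.28 ± 0.11, higher at 3 of 12 times), eIF3f1 (0.21 ± 0.094, 10 of 12 times) and eIF3g1 (0.22 ± 0.10, 8 of 12 times), all with a limma adjusted p of at least 0.915. The median difference was 0.03 over the members and -0.03 over all genes. The half-width of the 95% interval had a median of 0.23 over the members, before any adjustment over genes.

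Rhythm was tested as a 24 h cosine on log2(TPM + 1), first as 1 curve shared by the 3 conditions. Of the 35 members 3 were called, eIF4H1, eIF1A and eIF3a, against 23.9% of all genes tested. An unadjusted limma p below 0.05 was reached by 10 members and by 3178 of the 8649 genes. The called set changed with scaling. After each library was divided by its median ratio none of the 3 was called (limma adjusted p = 0.0989, 0.313 and 0.298). eIF2gamma (0.00316) and eIF3b (0.0331) were called then, against 21.8% of all genes. The fitted peak-to-trough fold had a median of 1.20 over the members, 1.33 over all genes and 1.07 over the ribosomal proteins, of which 0 of 87 were called by limma, with 1 at an unadjusted p below 0.05.

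eIF4H1 (FBgn0262734), a helper of the eIF4A helicase, had the smallest p. Its mean was 118 ± 24.6 TPM over the 6 libraries of ZT14 and ZT16, and 84.7 ± 23.6 TPM over those of ZT06 and ZT08 (SD). In LC25 it ran between 80.5 TPM at ZT24 and 149 TPM at ZT14, in HC18 between 57.8 TPM at ZT10 and 97.4 TPM at ZT18, and in HC25 between 60.7 TPM at ZT08 and 143 TPM at ZT14. The highest library of each condition thus fell between ZT14 and ZT18. The shared curve had an amplitude (mean to peak) of 0.25 ± 0.054 on the log2 scale, a 1.42-fold change between trough and peak, and peaked at ZT17.6 (limma adjusted p = 0.00191). The HC25 library of ZT08 had the highest glial, germline and fat body marker sums. Without it, the HC25 library of ZT06 and the HC18 library of ZT24 the amplitude was 0.22, with a peak at ZT16.8 (limma adjusted p = 0.00295).

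eIF1A peaked at ZT12.3 with an amplitude of 0.15 ± 0.047, or 1.24-fold (limma adjusted p = 0.0427); its highest library was at ZT14 in LC25 (465 TPM), at ZT10 in HC18 (628 TPM) and at ZT14 in HC25 (509 TPM). eIF3a peaked at ZT13.0 with an amplitude of 0.22 ± 0.068, or 1.35-fold (limma adjusted p = 0.0473); its highest library was at ZT18 in LC25 (55.9 TPM), at ZT10 in HC18 (49.6 TPM) and at ZT08 in HC25 (51.3 TPM). The peaks of eIF3a were thus spread between ZT08 and ZT18. Neither call held in all alternatives: eIF1A missed the threshold in 4 of 11 and eIF3a in 7 of 11, in both cases also without the 4 HC18 libraries low in fmt (limma adjusted p = 0.0522 and 0.0583). eIF3a missed it too when the HC25 library of ZT08 was left out together with the HC25 library of ZT06 and the HC18 library of ZT24 (limma adjusted p = 0.0687).

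**Figure D4:**
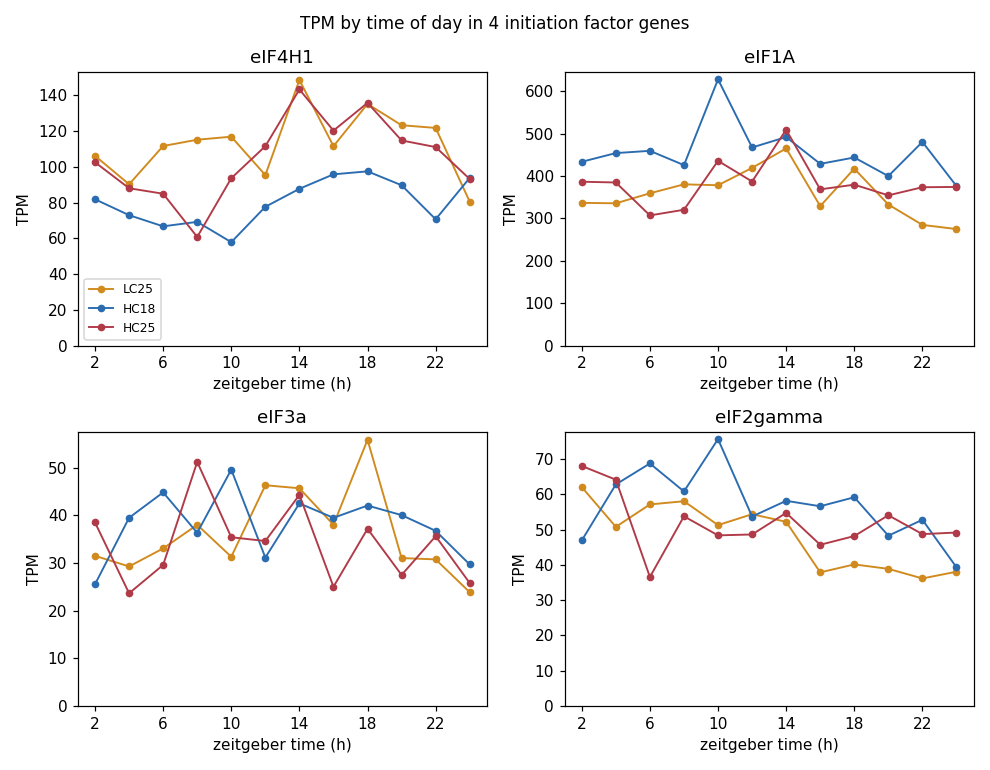
TPM against zeitgeber time (h) in LC25, HC18 and HC25, 1 library per point, for the 3 members called rhythmic and for eIF2gamma. eIF4H1 is highest between ZT14 and ZT18 in each condition, and eIF2gamma has its HC25 minimum of 36.5 TPM in the library of ZT06.

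When the ZT06 library of HC25 was left out, eIF2gamma, eIF5 and eIF3i were called in addition, making 6 members, against 25.0% of all genes. eIF2gamma, the GTPase subunit of eIF2, had 36.5 TPM there and 68.0 TPM in the HC25 library of ZT02; its shared curve peaked at ZT7.98 with an amplitude of 0.17 ± 0.058 (limma adjusted p = 0.0815), and without that library the amplitude was 0.20 (limma adjusted p = 0.0110). With the library kept it was also called after median-ratio scaling, after quantile normalization (limma adjusted p = 0.00707) and with library weights (0.0138). eIF5 had 159 TPM there, the lowest of its 36 values, and its limma adjusted p was 0.0970 with the library and 0.0400 without it. For eIF3i these were 0.0938 and 0.0376.

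Condition by condition, no member was rhythmic in LC25 (6.14% of all genes were) or in HC18 (5.52%) by limma. An unadjusted p below 0.05 was reached by 4 members and 1593 genes in LC25, and by 1 member and 1236 genes in HC18. In HC25, where 8.45% of all genes were called, eIF4H1 was the 1 member called, with an amplitude of 0.37 ± 0.093, 1.67-fold, and a peak at ZT17.6 (limma adjusted p = 0.0235). That call was lost in 4 of 12 alternatives: after median-ratio scaling (amplitude 0.21, limma adjusted p = 0.562), after quantile normalization (0.26, p = 0.315), without 3 libraries that stood apart (0.28, p = 0.191) and with the HC25 libraries fitted alone (p = 0.192). The difference of its rhythm was not called for LC25 against HC25 or for HC18 against HC25 (limma adjusted p = 0.969 and 0.994), nor was that of any other member or of any gene (0.0% of all genes in both comparisons). No member reached an unadjusted p below 0.05 for a rhythm difference, while 355 genes did for LC25 and 316 for HC18.

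The fitted peaks of 33 of the 35 members fell between ZT8 and ZT18, a window chosen after the values were seen, against 64.4% of all genes. This count depended on scaling: after rescaling each library by its median ratio it was 15, after quantile normalization 22, and after recomputing shares without Pdf, fmt, trol, ribosomal proteins and mitochondrial transcripts 25. Most of these curves were not called, so their peaks are descriptions only.

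The authors' deposited tables of BooteJTK, a rank-based rhythm test, called 2 of the 35 members at an adjusted p below 0.05 in the 25 °C libraries, where they called 10.8% of all genes: eIF5 (0.0255) and eIF2A (0.0432). In the authors' deposited table for all libraries, with 23.1% of genes called, there were 4: eIF5 (0.00426), eIF4H1 (0.0153), eIF3a (0.0386) and eIF4B (0.0452). eIF4H1 and eIF3a were thus called both there and by the cosine fit over the same libraries, and eIF1A by the cosine fit alone (0.122 in the authors' deposited table).

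Of the 25 regulators and partners of initiation 9 (36%) were called by the shared curve, against 23.9% of all genes. The smallest p belonged to Thor, the 4E-BP that blocks eIF4E (3.26-fold, peak at ZT6.99, limma adjusted p = 2.19e-12), tyf, the translational activator of clock mRNAs (3.74-fold, peak at ZT7.83, limma adjusted p = 5.68e-11), and bel, a DEAD-box helicase (1.83-fold, peak at ZT15.8, limma adjusted p = 2.89e-06). The others were crc, the fly ATF4 (1.46-fold), mIF2, a mitochondrial factor (1.84-fold), PEK, a kinase of eIF2alpha (1.43-fold), Rheb (1.38-fold), pix (1.24-fold) and Atx2 (1.32-fold). Of the 9 elongation and release factors 1 (11.1%) was called, eRF3, the GTPase of termination (1.96-fold, peak at ZT8.85, limma adjusted p = 0.000876). eIF4E1, the target of Thor, had a fitted fold of 1.10 (limma adjusted p = 0.683).

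Of 89 annotated transcripts of the members 69 reached a mean of 1 TPM and were tested among 14167 transcripts. The program that made the values divides reads of shared exons by a model, so these are estimates. One transcript was called rhythmic by the shared curve, against 13.4% of all transcripts: eIF4H1-RA, 65.8% of its gene's TPM. It had 20.7, 73.0 and 118 TPM in LC25, 24.5, 63.4 and 85.4 TPM in HC18, and 26.1, 65.5 and 111 TPM in HC25, with the highest library at ZT14 in LC25 and at ZT18 in the other conditions. Its amplitude was 0.63 ± 0.12, 2.40-fold, with a peak at ZT15.6 (limma adjusted p = 0.000818), and this call held in all 11 alternatives. For its LC25 curve in the fit of all 36 libraries, where 3.16% of all transcripts were called, the amplitude was 1.04 ± 0.19 (limma adjusted p = 0.00318); with the 12 LC25 libraries fitted alone it was not called (limma adjusted p = 0.0658). No member transcript was called by limma in HC18, where 2.64% of all transcripts were, or in HC25 (4.15%). An unadjusted p below 0.05 was reached by 0 of them in HC18 and 7 in HC25, and by 1547 and 2358 of all 14167 transcripts.

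eIF4H1-RB, 27.3% of the gene, was not called (limma adjusted p = 0.485). In LC25 it had 72.8 TPM at ZT02, where eIF4H1-RA had 28.1 TPM, and 14.6 TPM at ZT14, where eIF4H1-RA had 118 TPM. The gene's sum at those times was 106 and 149 TPM, so the sum varied less than either estimate.

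**Figure D5:**
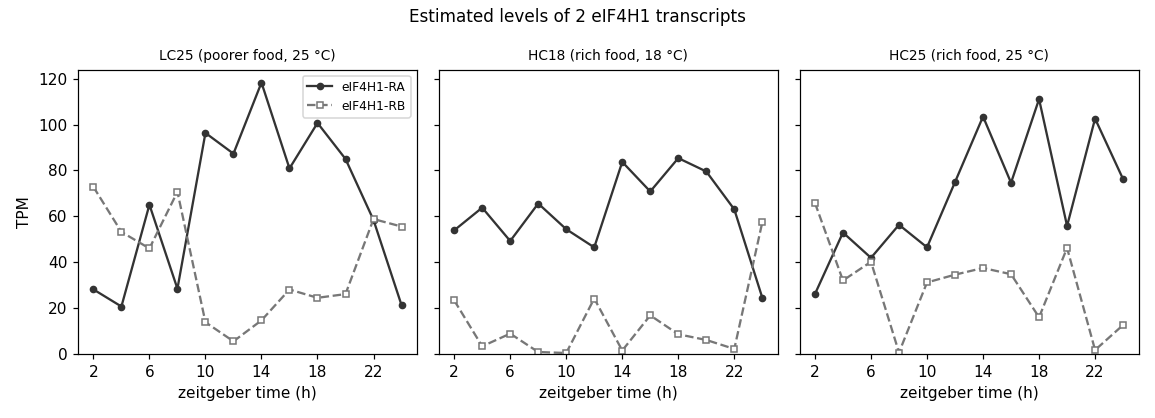
Estimated TPM of the transcripts eIF4H1-RA (solid) and eIF4H1-RB (dashed) against zeitgeber time (h) in LC25, HC18 and HC25, 1 library per point. In LC25 eIF4H1-RA is highest at ZT14 (118 TPM), when eIF4H1-RB is at 14.6 TPM.

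Against HC25, 9 member transcripts differed in HC18 (4.76% of all transcripts did), 7 of them higher (3.17% of all) and 2 lower (1.6% of all). The higher ones included eIF3d1-RB, eIF3b-RA, eIF3i-RA, eIF3e-RA and eIF3k-RA, which carry nearly all TPM of their genes, and the minor transcripts eIF4B-RE and eIF5-RA. eIF5-RA had 9.30, 19.6 and 32.1 TPM in HC18 and 3.39, 8.48 and 24.7 TPM in HC25 (log2 difference 1.22 ± 0.33, 11 of 12 times, limma adjusted p = 0.0337), 4.47% of a gene whose own level differed by 0.06 and was not called. Its call was lost in 6 of 12 alternatives, with limma adjusted p of 0.0618 to 0.297 in them. When the ZT06 library of HC25 was left out, eIF5-RA (0.0618), eIF3e-RA (0.0581) and eIF3k-RA (0.0722) were not called by limma, while the genes eIF3e and eIF3k were. The lower ones were eIF2A-RD and eIF4B-RB, the main transcript of eIF4B. eIF4B-RB had 75.2, 115 and 155 TPM in HC18 and 121, 150 and 210 TPM in HC25, and fell by 0.43 ± 0.11 on the log2 scale (higher at 1 of 12 times, limma adjusted p = 0.0203), while the whole gene was not called (log2 difference -0.21, limma adjusted p = 0.180). eIF4B-RA, 24.2% of the gene, differed by 0.20 with an interval of -0.11 to 0.52. For eIF4H1, lower in HC18 as a gene, neither eIF4H1-RA (log2 difference -0.11, limma adjusted p = 0.825) nor eIF4H1-RB (-1.46, limma adjusted p = 0.133) was called. The estimate of eIF4H1-RB had a median of 7.32 TPM in HC18 and 33.3 TPM in HC25. Which transcript carries the lower level of the gene was not tested. Without the 4 HC18 libraries low in fmt 2 transcripts were called higher and 1 lower, against 0.367% and 0.459% of all transcripts. eIF4B-RB (-0.45, limma adjusted p = 0.0624) and eIF5-RA (1.00, limma adjusted p = 0.297) were not called then.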

How the data were processed

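RNA-seq of sorted LNv neurons was quantified with kallisto, per the submitters' processing notes; no version, transcript set or build is given in the sources used here. The deposited transcript table holds TPM, per the file headers, and each library has the same total, so depth is unknown and no counting intervals are given. The TPM of a gene's transcripts were added up by Ensembl annotation, release 115 (30246 of 30485 transcripts matched; the other 239 carried 0.139% of TPM). A second table with 36 columns of per-sample gene sums was not used. The authors' deposited BooteJTK tables give a score per gene and the p-value adjusted by Benjamini-Hochberg that is quoted here.

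Condition codes were paired with foods and temperatures by reading the codes against the design text. Genes with a mean of at least 1 TPM were fitted as log2(TPM + 1) with limma 3.58.1 in R 4.3.3 (trended variance), so fold changes of low genes are understated. Level fits held condition and time point, which pairs the libraries of 1 zeitgeber time, a pairing taken from the labels; rhythm fits held condition means and 24 h cosine and sine terms. P-values were adjusted over all genes or all transcripts tested. The scripts were tested on simulated data.

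Members, comparison lists and alternatives were chosen with earlier results of these data known. Values are printed for members called in a test and for the most and least abundant of each role; eIF2gamma, the near misses and the other transcripts were named after their values were seen. Of 27 listed regulators and partners 25 were tested; the others, and 1 germline marker, are not analysed here. No gene coordinates are printed, because the build of the files is unknown.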

Additional observations from a re-analysis of the deposited data

How the results depend on the processing

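No called member changed sign under any alternative run; up to 5 uncalled members did so for HC18 and up to 8 for LC25, and the median of all genes for LC25, -0.03 as deposited, was 0.02 after quantile normalization and 0.07 with the recomputed shares. The higher level of eIF3d1 and eIF3b in HC18 kept its call in all 12 alternatives (log2 differences of 0.54 to 0.71 and 0.43 to 0.63), eIF2A in 11 of 12, and the rhythm of eIF4H1 in 10 of 11, missing the threshold after median-ratio scaling (amplitude 0.18, limma adjusted p = 0.0989). From here on, brackets give the share of all genes, or of all transcripts, called in the same way under the same alternative. With shares recomputed without Pdf, fmt, trol, ribosomal proteins and mitochondrial transcripts, 1 member was rhythmic in place of 3 (22.4%). In HC18 0 members (1.14%) and 0 transcripts (0.674%) were lower, and 5 eIF3 subunits were still called higher (5.27%). Without the HC25 library of ZT06, 6 members were rhythmic over the 3 conditions (25.0%) and 1 in LC25 (8.19%). Without the 4 HC18 libraries low in fmt, 2 members (0.821%) and 2 transcripts (0.367%) were higher in HC18. Lower were 1 member (0.775%) and 1 transcript (0.459%), and 2 transcripts were rhythmic (13.2%). The HC18 library of ZT24 and the HC25 libraries of ZT06 and ZT08, the 3 that correlated least with the rest, were left out together. Then 0 members were rhythmic in HC25 (6.13%) and 1 in LC25 (8.44%), and 5 transcripts were lower in HC18 (3.66%). After median-ratio scaling 0 members were rhythmic in HC25 (7.84%) and 5 transcripts were lower (2.94%). After quantile normalization 0 members were rhythmic in HC25 (8.29%), 1 in LC25 (7.37%), and 5 transcripts were lower (3.32%). With each condition fitted alone 0 members were rhythmic in HC25 (3.14%), and with 24 h and 12 h terms together 1 member was rhythmic (22.1%). With library weights, whose estimation stopped before it converged, 8 members were rhythmic (30.6%), 1 in LC25 (9.56%) and 1 in HC18 (13.5%). Under those weights 10 members were higher in HC18 (10.4%), 2 transcripts were rhythmic (16.9%), 11 higher (6.13%) and 7 lower (4.88%). With no minimum level 2 transcripts were higher (0.879%). The time-point pairing is the replicate block. Without it 4 members were higher (3.46%) and 2 lower (1.42%) in HC18 in place of 6 and 3, and 4 transcripts were higher (2.11%) in place of 7. The causes of these changes were not tested. The unknown depth limits what can be said of the least abundant members.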
